A study of Homo sapiens with 10 samples.

Results

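The 9 genes described here are CACNA1G, NEUROG1, RUNX3, SOCS1, CDKN2A, CRABP1, MGMT, TIMP3 and HLTF, out of 58884 genes in each count table. They were chosen as a list of genes from the marker panels of the CpG island methylator phenotype of colorectal cancer, together with other genes known to be silenced at their promoters in that cancer. The rule that defines them uses no measured value, though the list was drawn up with earlier results of these data known. All 9 symbols were matched to an Ensembl identifier in the tables. RNA-seq was performed on HCT116 cells, an established human colorectal carcinoma line, and on DNMT1 KO cells, a published derivative of it in which the gene of the maintenance DNA methyltransferase DNMT1 was targeted. The derivative is strictly a hypomorph, because it still makes a shortened DNMT1. Both lines were untreated, and 6 HCT116 libraries (replicates 1, 2, 3, 7, 8 and 9) and 4 DNMT1 KO libraries (replicates 1 to 4) were compared. The mutant group is a single derivative line, so loss of DNMT1 and other differences that arose in that line cannot be told apart.

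CpG islands are stretches of DNA rich in CpG dinucleotides that cover many promoters and are usually free of methylation. In a subset of colorectal tumours many islands become methylated together, and the panel genes are used to recognise that subset by their promoter methylation. DNMT1 copies methylation to the new DNA strand after replication, and a gene whose promoter island is methylated is typically not transcribed. Some panel genes restrain growth or repair DNA, while others have no established role in the colon and serve as markers alone. The RNA data describe transcript levels and hold no measurement of methylation.

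The promoters are shown because methylation falls on CpG dinucleotides, which are marked in these letters. Which CpG dinucleotides the panels read is not part of these data. RefSeq promoter windows on GRCh38.p14, from 250 bases before to 50 bases after a transcription start, matched 8 of the 9 genes and gave 10 windows, as RUNX3 and CDKN2A have 2 starts each. The windows held 15 to 45 CpG dinucleotides, against a median of 14 over the 35116 promoters in the table. MGMT had the most, with 45, a number that 3.48% of all promoters reached. NEUROG1 had 35, SOCS1 33, TIMP3 31, HLTF 27 and CRABP1 25. The 2 RUNX3 windows had 15 and 38, and the 2 CDKN2A windows had 28 and 26. The letters GGGCGG, searched on both strands, were found in 9 of the 10 windows and in 45.0% of all promoters. For the 3 genes whose RNA was lower in DNMT1 KO cells and for NEUROG1, which had no count in any library, the bases of the window before the first annotated exon are printed 5′ to 3′ on the strand of the gene, with every CpG in capitals. They are chr10:129466991-129467189 (plus strand, 199 bases, 29 CpG dinucleotides) for MGMT, chr22:32801455-32801700 (plus strand, 246 bases, 25) for TIMP3, chr3:149086555-149086783 (minus strand, 229 bases, 18) for HLTF and chr5:135535965-135536214 (minus strand, 250 bases, 30) for NEUROG1.
MGMT: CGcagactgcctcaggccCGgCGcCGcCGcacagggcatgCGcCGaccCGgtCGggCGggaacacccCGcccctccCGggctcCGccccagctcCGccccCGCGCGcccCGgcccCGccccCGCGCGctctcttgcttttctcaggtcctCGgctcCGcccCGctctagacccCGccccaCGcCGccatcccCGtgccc
TIMP3: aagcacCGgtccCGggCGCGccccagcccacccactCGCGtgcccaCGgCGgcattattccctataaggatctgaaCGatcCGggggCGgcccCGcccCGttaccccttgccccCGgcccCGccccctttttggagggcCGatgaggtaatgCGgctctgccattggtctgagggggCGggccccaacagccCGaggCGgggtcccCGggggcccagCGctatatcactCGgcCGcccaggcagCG
HLTF: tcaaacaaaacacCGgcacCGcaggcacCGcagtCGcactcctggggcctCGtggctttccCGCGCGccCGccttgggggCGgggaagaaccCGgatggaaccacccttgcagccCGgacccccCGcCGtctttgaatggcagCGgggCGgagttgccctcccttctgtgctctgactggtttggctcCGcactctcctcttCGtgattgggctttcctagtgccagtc
NEUROG1: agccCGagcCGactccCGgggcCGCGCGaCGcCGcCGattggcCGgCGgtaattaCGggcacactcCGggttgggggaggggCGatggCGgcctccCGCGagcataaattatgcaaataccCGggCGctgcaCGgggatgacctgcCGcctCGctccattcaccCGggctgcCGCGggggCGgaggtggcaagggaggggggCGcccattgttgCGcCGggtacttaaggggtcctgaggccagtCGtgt

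The HCT116 libraries held 35418732 to 85991812 counts each, and the DNMT1 KO libraries 26700853 to 55732013. The labels place replicate 1 of each group in batch 1, replicates 2 and 3 of each group in batch 2, DNMT1 KO replicate 4 in batch 3 and HCT116 replicates 7, 8 and 9 in batch 4. RNA levels are given as CPM, the counts of a gene as a share of its library total, scaled by the TMM method, and a difference is the log2 fold change, DNMT1 KO minus HCT116, with its standard error. Over all genes tested, the median log2 fold change was -0.07 on this scale and 0.14 with library totals alone. The targeted gene was examined first. DNMT1 was measured at 89.8 to 263 CPM in HCT116 and at 14.1 to 22.3 CPM in DNMT1 KO, with a log2 fold change of -2.97 (adjusted p = 1.74e-05, edgeR).

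Levels between genes were compared per kilobase of exon (RPKM). In HCT116, HLTF was highest at 18.7 ± 4.55 RPKM (SD, n = 6), followed by RUNX3 at 15.1 ± 5.36 RPKM, and these 2 differed by less than their spread. CDKN2A stood at 7.59 ± 2.37 RPKM. TIMP3, MGMT and SOCS1 came next at 1.56 ± 0.91, 1.42 ± 0.62 and 1.17 ± 0.66 RPKM, and their neighbours in this order did not differ beyond their spread. CACNA1G was lower at 0.314 ± 0.098 RPKM, and CRABP1 and NEUROG1 were at or near 0. In DNMT1 KO the order became RUNX3 (14.3 ± 0.74 RPKM, n = 4), CDKN2A (11.9 ± 0.39 RPKM), HLTF (9.21 ± 3.32 RPKM), CACNA1G (1.09 ± 0.35 RPKM) and SOCS1 (1.05 ± 0.33 RPKM). CDKN2A and HLTF, and likewise CACNA1G and SOCS1, lay within their spread of each other. MGMT and TIMP3 now stood with NEUROG1 and CRABP1 at the bottom.

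**Figure D1:**
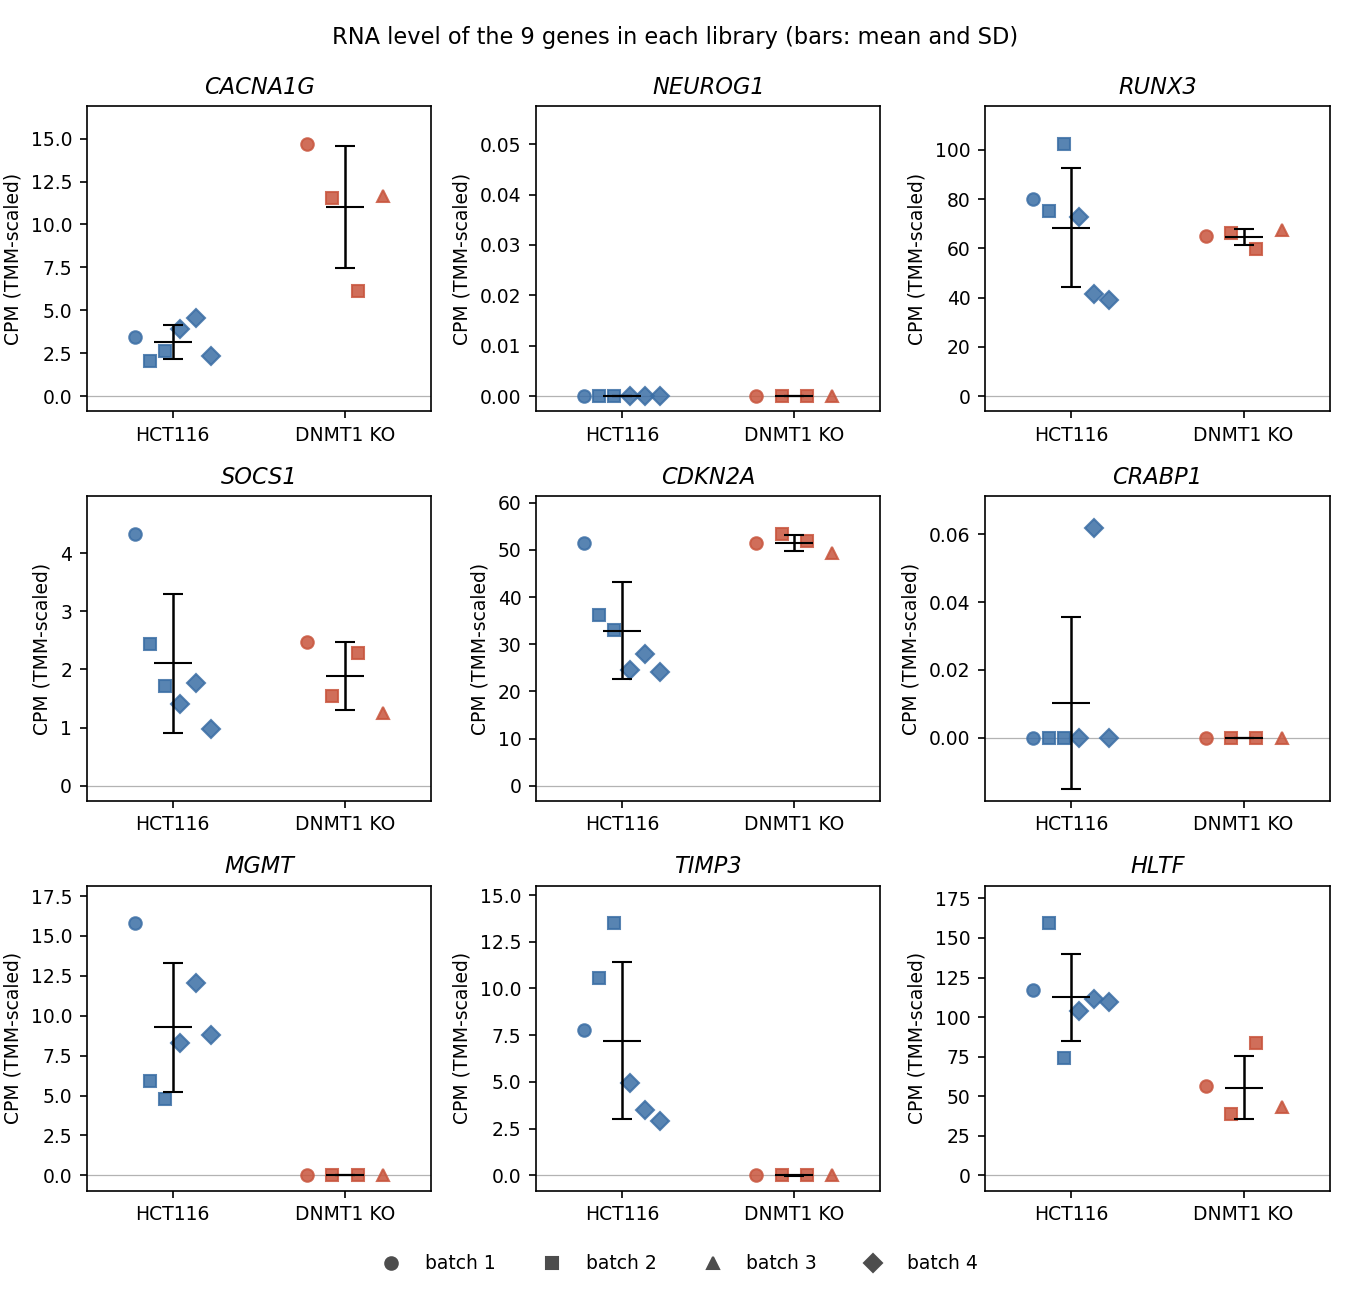
RNA level of each of the 9 genes (CPM on TMM-scaled totals, 1 panel per gene, linear axes that differ between panels) in the 6 HCT116 and 4 DNMT1 KO libraries. Each point is a library, its shape gives the batch, and the bars give the mean and SD; MGMT and TIMP3 lie at 0.051 CPM or less in DNMT1 KO, CACNA1G lies between 6.13 and 14.7 CPM there, and NEUROG1 lies at 0 throughout.

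Calls were made with edgeR's quasi-likelihood test and required both an adjusted p under 0.05, over the 19279 genes tested, and a log2 fold change past 1 in either direction. Of the 9 genes, 7 passed the filter on low counts. Among these, 1 was called higher in DNMT1 KO (CACNA1G), 3 were called lower (MGMT, TIMP3 and HLTF), and 3 were not called (RUNX3, SOCS1 and CDKN2A). Over all tested genes, 7.42% were called higher and 6.49% lower, 13.9% in all. The libraries of the 2 groups did not overlap for CACNA1G, which was higher, nor for MGMT and TIMP3, which were lower, where 8.4% of all tested genes were higher and 6.79% lower without overlap. MGMT and TIMP3 passed the filter only through their HCT116 counts, so their calls are described by their counts below. The 7 had a median log2 fold change of -0.14.

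MGMT (ENSG00000170430, hg38 chromosome 10, 129467190 to 129770983, plus strand) encodes the enzyme that removes alkyl groups from guanine and so repairs alkylation damage to DNA. It was expressed in every HCT116 library, at a lowest of 4.81, a median of 8.53 and a highest of 15.8 CPM. In DNMT1 KO replicates 1 to 4 its level was 0.051, 0, 0 and 0.035 CPM, from 2, 0, 0 and 1 counts. The groups did not overlap, and MGMT transcripts were all but undetected in the derivative.

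In counts, MGMT had 3080 over the 6 HCT116 libraries and 3 over the 4 DNMT1 KO libraries, a ratio of 573 scaled to depth (95% exact counting interval 196 to 2778). The fitted log2 fold change was -8.92 (SE 0.73, adjusted p = 7.88e-07, edgeR), a value that at such counts depends on the prior count of the model. It was -9.94 without DNMT1 KO replicate 1, which held 2 of the 3 counts. Within batch 1 the log2 ratio of mean levels was -8.29, and in batch 2 no MGMT count was found in either DNMT1 KO library. Exons of 2 other annotated genes share 781 of the 6527 MGMT exon bases, and both of these genes had a mean of 0 CPM in each group.

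TIMP3 (ENSG00000100234, chromosome 22, 32801705 to 32863041, plus strand) encodes an inhibitor of metalloproteinases that is held in the extracellular matrix. Its level in HCT116 was 2.92 CPM at the lowest, 6.36 CPM at the median and 13.5 CPM at the highest. In DNMT1 KO replicates 1 to 4 it was 0, 0, 0.032 and 0 CPM, and replicate 3 held both of the 2 counts. As for MGMT, every DNMT1 KO library lay far below every HCT116 library.

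The TIMP3 counts were 2055 in HCT116 and 2 in DNMT1 KO, a depth-scaled ratio of 573 (95% exact counting interval 158 to 4735). The fitted log2 fold change was -9.14 (SE 0.84, adjusted p = 2.61e-06, edgeR), a value that, as for MGMT, depends on the prior count of the model. It was -11.54 without DNMT1 KO replicate 3, which held both DNMT1 KO counts. Within batch 2 the log2 ratio of mean levels was -9.56, and in batch 1 the DNMT1 KO library had no TIMP3 count. No exon of another annotated gene overlaps the TIMP3 exons.

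The near absence of these 2 transcripts was set against all genes. A gene with at most 3 counts over the 4 DNMT1 KO libraries and a mean of at least 1 CPM in HCT116, a rule written after the MGMT and TIMP3 counts were seen, was found 43 times among the 19279 tested genes, or 0.223% of them. Only 14918 of the tested genes reached that mean in HCT116 and could meet the rule, so 0.223% understates the share among those. MGMT and TIMP3 are 2 of the 43.

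HLTF (ENSG00000071794, chromosome 3, 149030127 to 149086554, minus strand) encodes a DNA translocase and ubiquitin ligase that acts on PCNA at stalled replication forks. Unlike MGMT and TIMP3, it remained well expressed. In HCT116 its level was 74.2 CPM at the lowest, 110 CPM at the median and 159 CPM at the highest. In DNMT1 KO replicates 1 to 4 it was 56.4, 39.1, 83.4 and 43.1 CPM. HCT116 replicate 3 lay below DNMT1 KO replicate 3, both of batch 2, so the groups overlapped.

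The log2 fold change of HLTF was -1.02 (SE 0.27, adjusted p = 0.0185, edgeR), just past the fold required for a call, and -1.05 and -0.93 within batches 1 and 2. The call was kept in 9 of 20 alternative settings, in all of which the value stayed negative, from -1.26 to -0.80. With batch as a term it was lost (-0.97, adjusted p = 0.0541), as it was with that term on the libraries of batches 1 and 2 (adjusted p = 0.121), in batch 2 alone (adjusted p = 0.353) and with library totals alone (-0.80, adjusted p = 0.0589, all edgeR). It was also lost without HCT116 replicate 1 (-0.98, adjusted p = 0.0321) or replicate 2 (-0.87, adjusted p = 0.0391), where the fold fell short, and without DNMT1 KO replicate 1, 2 or 4, where the adjusted p was 0.0531, 0.0743 and 0.0722 (edgeR).

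CACNA1G (ENSG00000006283, chromosome 17, 50560715 to 50627474, plus strand) encodes the pore-forming subunit of a T-type, low-voltage-activated calcium channel, and it is a classical marker of the methylator phenotype. It was already detected in HCT116, at a lowest of 2.05, a median of 3.06 and a highest of 4.57 CPM. DNMT1 KO replicates 1 to 4 reached 14.7, 11.6, 6.13 and 11.7 CPM, so each lay above every HCT116 library.

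Its log2 fold change was 1.80 (SE 0.32, adjusted p = 0.00092, edgeR), and 2.08 and 1.91 within batches 1 and 2. The call held in 19 of 20 alternatives, with values of 1.66 to 2.03, and was lost in batch 2 alone, where 2 libraries a group gave an adjusted p of 0.0571 (edgeR). CACNA1G was the only one of the 9 genes called higher.

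CDKN2A (ENSG00000147889, chromosome 9, 21967752 to 21995301, minus strand) encodes an inhibitor of the cyclin D-dependent kinases and, in another reading frame, ARF, which restrains MDM2. Counts per gene do not separate these transcripts. HCT116 libraries spanned 24.1 to 51.4 CPM with a median of 30.5 CPM, and DNMT1 KO replicates 1 to 4 gave 51.4, 53.4, 51.9 and 49.3 CPM. The DNMT1 KO libraries lay close together, 3 of them just above HCT116 replicate 1, the highest HCT116 library, and replicate 4 below it.

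CDKN2A was not called, with a log2 fold change of 0.65 (SE 0.24, adjusted p = 0.081, edgeR). Without HCT116 replicate 1 it was 0.85 with an adjusted p of 0.0132, and with library totals alone it was 0.86 with an adjusted p of 0.0188 (edgeR), and neither passed the required fold. With batch as a term it was 0.40 (adjusted p = 0.333, edgeR). The ratio was 0.61 on the log2 scale within batch 2 and 0.00033 within batch 1. The antisense gene CDKN2B-AS1 shares 15.4% of the CDKN2A exon bases. As no strand setting of the counting is stated, how reads over the shared bases were assigned is not known. CDKN2B-AS1 itself was measured at 2.46 CPM in HCT116 and 2.83 CPM in DNMT1 KO.

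RUNX3 (ENSG00000020633, chromosome 1, 24899511 to 24965121, minus strand) encodes a Runt-domain transcription factor that works downstream of TGF-beta. Its level ran from 39.0 to 102 CPM in HCT116, with a median of 74.1 CPM, and was 65.2, 66.3, 59.8 and 67.3 CPM in DNMT1 KO replicates 1 to 4. All DNMT1 KO values fell inside the HCT116 range, but in the shared batches 1 and 2 the 3 DNMT1 KO libraries lay below all 3 HCT116 libraries, at 79.9, 75.4 and 102 CPM. The log2 ratios within batches 1 and 2 were -0.29 and -0.50, and the value with batch as a term was -0.43 (SE 0.29, adjusted p = 0.381, edgeR). Over all libraries the log2 fold change was -0.08 (SE 0.27, adjusted p = 0.876, edgeR), and its sign turned with library totals alone (0.12) and without HCT116 replicate 3 (0.10).

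SOCS1 (ENSG00000185338, chromosome 16, 11254417 to 11256204, minus strand) encodes a feedback inhibitor of cytokine signalling through the JAK kinases. HCT116 libraries gave 0.976 CPM at the lowest, 1.74 CPM at the median and 4.33 CPM at the highest, while DNMT1 KO replicates 1 to 4 gave 2.48, 1.55, 2.29 and 1.25 CPM. Here, too, the DNMT1 KO values lay inside the HCT116 range. The log2 fold change was -0.14 (SE 0.42, adjusted p = 0.86, edgeR), with a positive sign under library totals alone (0.075) and without HCT116 replicate 1 (0.22) or DNMT1 KO replicate 4 (0.0024). Within batches 1 and 2 the log2 ratios were -0.81 and -0.11, and with batch as a term the value was -0.35 (adjusted p = 0.655, edgeR).

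NEUROG1 (ENSG00000181965, chromosome 5, 135534282 to 135535964, minus strand) encodes a basic helix-loop-helix factor that specifies sensory neurons. It had 0 counts in all 10 libraries, which allows a level of up to 3 counts per library, or 0.0349 to 0.104 CPM. CRABP1 (ENSG00000166426, chromosome 15, 78340353 to 78348225, plus strand), a cytosolic carrier of retinoic acid, had 4 counts in HCT116 replicate 8 (0.062 CPM) and 0 counts in the other libraries, and 45.9% of its exon bases are shared with an annotated gene on the other strand. Neither gene passed the filter, and neither was detected in DNMT1 KO at this depth. For CRABP1 the two-sided exact permutation test over libraries gave p = 1, which could not come out otherwise. As only HCT116 replicate 8 held any count, every split of the libraries gives a difference at least as large.

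**Figure D2:**
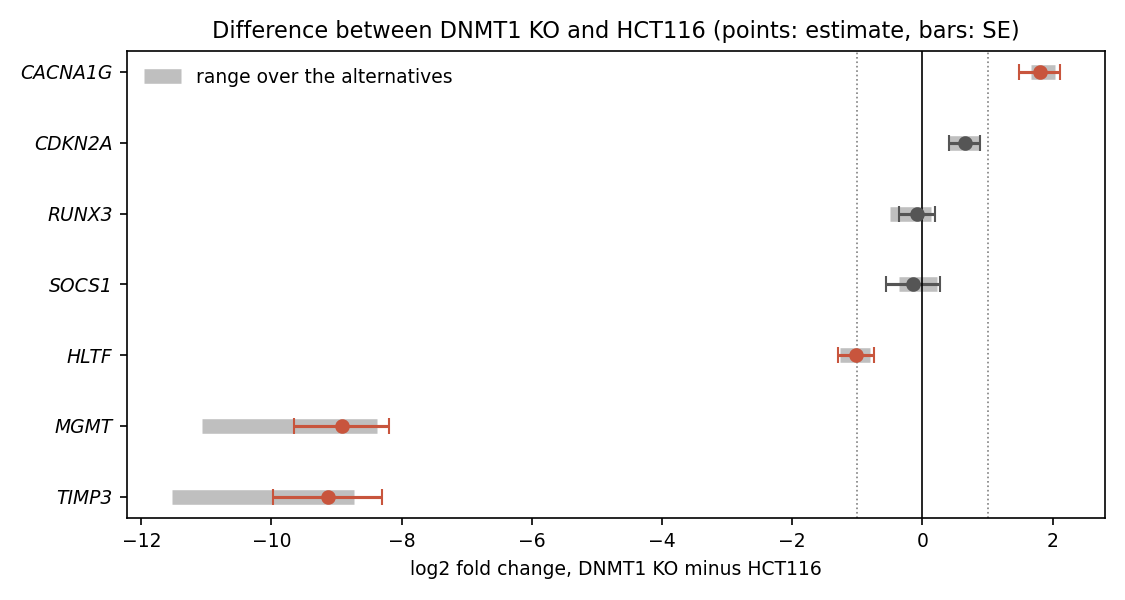
Log2 fold change, DNMT1 KO minus HCT116, of the 7 tested genes, with points for the estimate, thin bars for its SE and grey bars for the range over the alternative settings; dotted lines mark -1 and 1, and called genes are red. MGMT (-8.92) and TIMP3 (-9.14) lie far to the left, HLTF sits at -1.02 on the line, and CACNA1G (1.80) lies to the right.

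How far the same genes differed between libraries of 1 genotype was then examined by comparing HCT116 batch 4 (replicates 7, 8 and 9) with HCT116 batches 1 and 2 (replicates 1, 2 and 3). TIMP3 was the only one of the 9 called, at 7.80, 10.6 and 13.5 CPM in replicates 1, 2 and 3 and at 4.93, 3.50 and 2.92 CPM in replicates 7, 8 and 9, without overlap. Its log2 fold change, batch 4 minus batches 1 and 2, was -1.51 (SE 0.37, adjusted p = 0.0257, edgeR), where 8.03% of 18656 tested genes were called, 3.09% higher and 4.94% lower. The call was lost without any 1 of HCT116 replicates 2, 3, 7, 8 and 9, with values of -1.75 to -1.29 and adjusted p-values of 0.0552 to 0.139 (edgeR), and kept without replicate 1. The other tested genes had values from -1.05 (SOCS1) to 0.38 (CACNA1G), with adjusted p-values of 0.154 or more. MGMT differed by 0.12 (SE 0.43) and HLTF by -0.12 (SE 0.33).

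The genomic neighbours of the 4 called genes were compared next. The nearest protein-coding gene past the end of MGMT, 64.3 kb away, is EBF3, which encodes an early B-cell factor transcription factor. EBF3 had 128 counts in HCT116, at 0.309 to 0.511 CPM, and 0 counts in DNMT1 KO, which makes it at least 23.8-fold lower against a floor of 3 counts over the 4 libraries. EBF3 entered the test through its HCT116 counts alone. Its fitted log2 fold change was -7.33 (SE 0.90, adjusted p = 0.000126, edgeR), a value that depends on the prior count of the model. It was called in all 18 alternatives that gave a value, which adds no support to the counts themselves. On the other side of MGMT the nearest coding gene, MKI67, lies 1341 kb away and was not called (0.20, adjusted p = 0.818, edgeR).

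Within 1000 kb of the MGMT start, 4 other genes were tested (median log2 fold change -1.40), of which 2 were called lower and none higher. They are EBF3 and C10orf143 (-1.86, adjusted p = 0.0442, edgeR), the latter named after its value was seen and called in 11 of 19 alternatives. It lost its call without any 1 of HCT116 replicates 1, 2 and 3 or DNMT1 KO replicates 1, 2 and 4, with adjusted p-values up to 0.138 over all alternatives.

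TIMP3 lies inside SYN3, a longer gene that encodes a synapsin. SYN3 had 6 counts in HCT116 and 36 in DNMT1 KO and was not tested. At lower coordinates the nearest coding gene, FBXO7, an F-box protein gene 303 kb away, was not called, at 0.08 (SE 0.21, adjusted p = 0.838, edgeR). Of 10 other genes tested with a start within 1000 kb of the TIMP3 start (median log2 fold change -0.07), 1 was called lower and none higher. That gene, SLC5A1, a sodium and glucose cotransporter named after its value was seen, changed by -3.59 (SE 0.98, adjusted p = 0.0208, edgeR) and lost its call without DNMT1 KO replicate 1, 2 or 4 (adjusted p up to 0.0678).

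The flanking genes of CACNA1G, SPATA20 at 4.86 kb and ABCC3 at 7.30 kb, were not called (0.17 and 0.28, adjusted p = 0.768 and 0.830, edgeR). Among 39 other genes tested within 1000 kb of the CACNA1G start, 4 were called higher and 2 lower, with a median log2 fold change of -0.08. Named after their values were seen, the former were NXPH3 (6.02), DLX3 (5.49), SAMD14 (1.32) and ENSG00000253730 (3.05) and the latter EPN3 (-4.35) and ITGA3 (-3.15). Next to HLTF, neither HPS3 (-0.25, adjusted p = 0.574) nor GYG1, whose span overlaps that of HLTF (-0.17, adjusted p = 0.799), was called (edgeR). In the window around HLTF, 2 of 13 other tested genes were called higher and none lower (median log2 fold change -0.17).

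The surroundings of the uncalled members were as follows. Over all tested genes 7.42% were called higher and 6.49% lower, with a median log2 fold change of -0.07. Around CDKN2A, 2 of 13 other tested genes within 1000 kb were called lower, with a median of -1.12. The nearest coding genes, MTAP (-0.85, adjusted p = 0.0296) and the related kinase inhibitor gene CDKN2B (-0.88, adjusted p = 0.459), were not called (edgeR). CDKN2B was, however, called lower with batch as a term (adjusted p = 0.0397, edgeR). Around RUNX3, 2 of 28 were called lower (median 0.02). Around SOCS1, 2 of 26 were called higher and 1 lower (median 0.17), and around CRABP1, 3 of 25 higher and 2 lower (median -0.04). Around NEUROG1 none of 15 was called (median 0.17), and the genes on either side of it, TIFAB and CXCL14, had 5 counts or fewer in all.

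**Figure D3:**
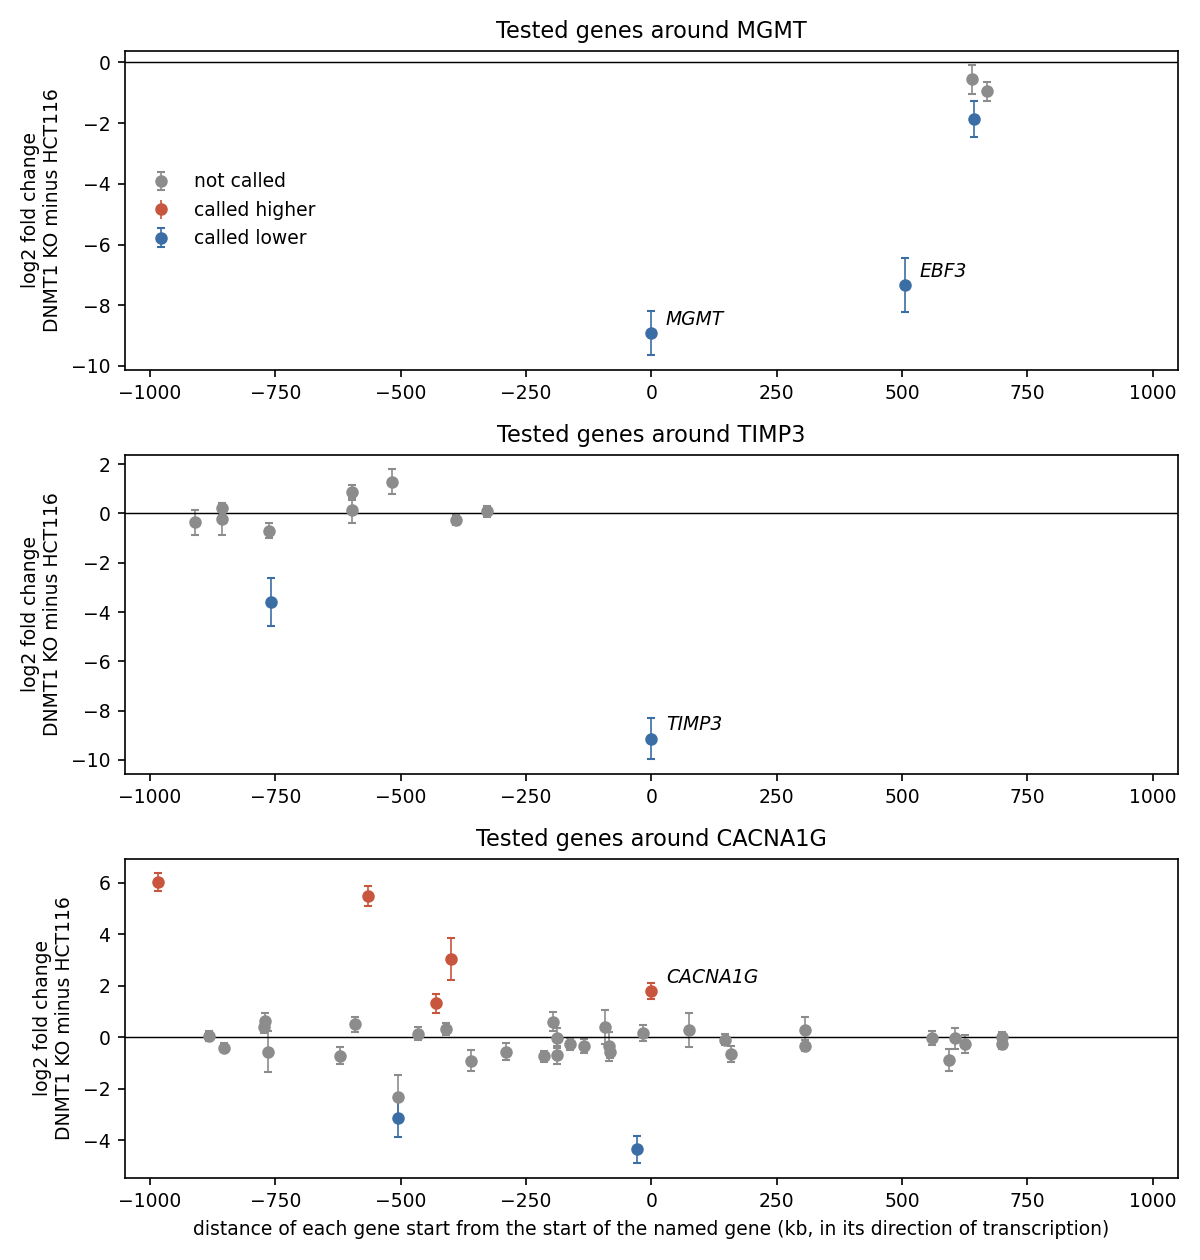
Log2 fold change (DNMT1 KO minus HCT116, bars give the SE) of tested genes whose start lies within 1000 kb of the start of MGMT, TIMP3 or CACNA1G, against the distance between the starts in kb; colours mark genes called higher, called lower or not called. Around MGMT few genes were tested and EBF3 (-7.33) lies nearest to it in value, around TIMP3 all but 1 of the 10 other genes were not called, and around CACNA1G 4 genes were called higher and 2 lower.

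Of the panel genes outside the 9, IGF2, an imprinted growth factor gene, was measured at 0.732 to 2.75 CPM in HCT116 and 5.14 to 18.6 CPM in DNMT1 KO without overlap, and was called higher at 2.97 (SE 0.43, adjusted p = 0.000159, edgeR). In batch 2 alone the call was lost, with an adjusted p of 0.0802 (edgeR). Exons of other annotated genes together share 75.0% of the 6979 IGF2 exon bases, 5144 bases with ENSG00000284779 and 1460 with INS-IGF2. Both of these genes had a mean of 0 CPM in each group. How reads over the shared bases were assigned is not stated.

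Of 32 other genes known to be silenced at their promoters in colorectal cancer, 15 were tested, 5 were called higher, 4 lower and 6 not called, with a median log2 fold change of 0.02 against -0.07 over all genes. Over all tested genes 7.42% were called higher and 6.49% lower. IGFBP7, a secreted binder of insulin-like growth factors, rose by 9.99 on the log2 scale, from 0.021 to 23.4 CPM. The intermediate filament gene VIM rose by 7.86, from 3.25 to 759 CPM, and the oestrogen receptor gene ESR1 by 5.10, from 0.050 to 1.47 CPM. RASSF2, a Ras-association domain gene, rose by 1.47, and the transcriptional repressor gene HIC1 by 1.43, though HIC1 kept its call in 8 of 19 alternatives and shares 29.8% of its exon bases with SMG6. The adjusted p-values of these 5 ran from 3.88e-08 to 0.0394 (edgeR). IGFBP7 had 7 counts in HCT116 and 4337 in DNMT1 KO, and ESR1 had 12 and 296. Both passed the filter on low counts through DNMT1 KO alone, so their fitted sizes rest on few HCT116 counts.

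The 4 that fell were IGFBP3, another binder of insulin-like growth factors, at -5.98, ID4, an inhibitor of basic helix-loop-helix factors, at -5.28, THBD, the thrombomodulin gene, at -3.78, and the death-associated kinase gene DAPK1 at -3.62 (adjusted p = 0.00197, 0.00518, 0.0102 and 0.000133, edgeR). IGFBP3 had 547 counts in HCT116 and 6 in DNMT1 KO, and ID4 had 133 and 2, so the sizes of both depend on the prior count. Both passed the filter on low counts through HCT116 alone, so their calls add no support to the counts themselves. IGFBP3, ID4 and THBD, like TIMP3, were also lower in HCT116 batch 4 than in batches 1 and 2, at -2.84, -2.59 and -3.08 (adjusted p = 0.00657, 0.0317 and 0.00872, edgeR). The 17 untested genes had group means of at most 0.178 CPM in HCT116 and 0.411 CPM in DNMT1 KO.

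**Figure D4:**
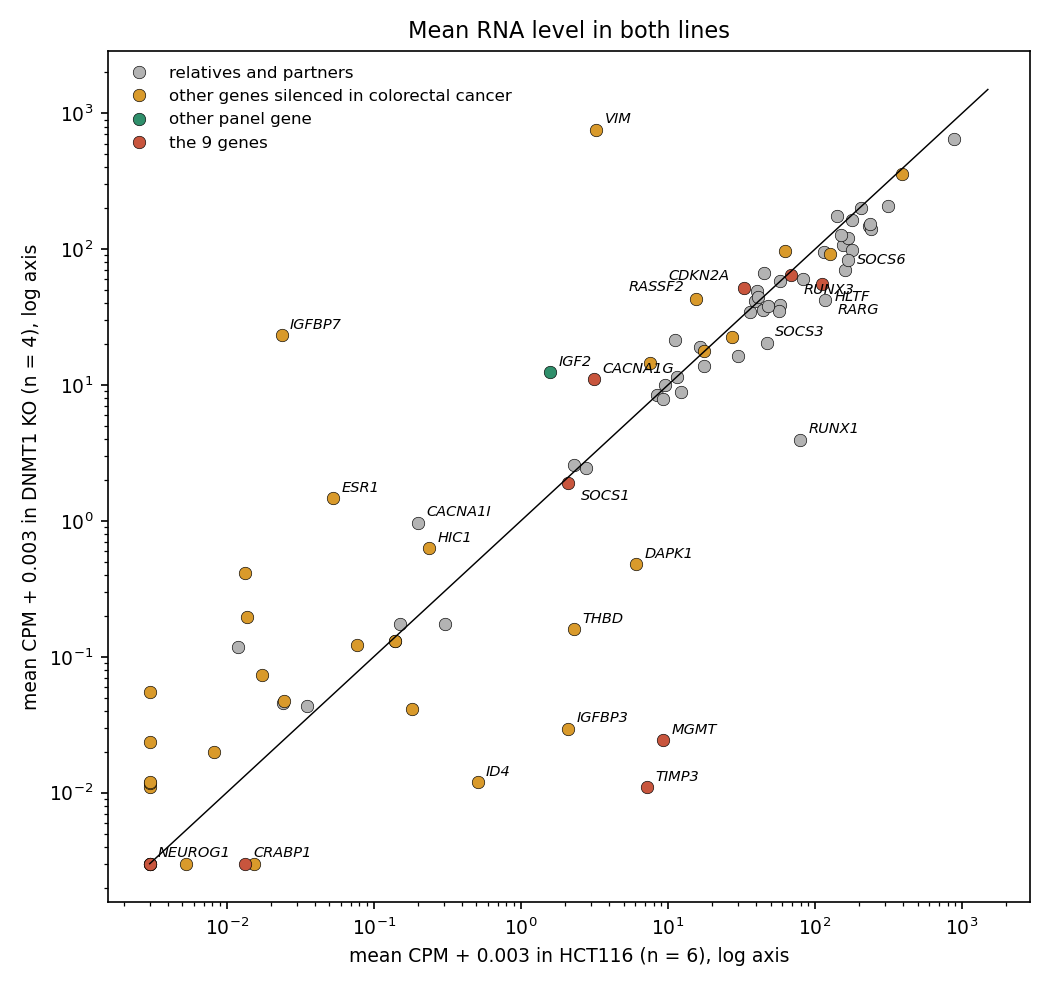
Mean level in DNMT1 KO (n = 4) against mean level in HCT116 (n = 6), both as CPM plus a small constant on log axes, for the 9 genes (red), another panel gene, IGF2 (green), other genes silenced in colorectal cancer (orange) and relatives and partners (grey); the line marks equal levels. MGMT and TIMP3 lie lowest in DNMT1 KO among the labelled genes with more than 1 CPM in HCT116, RUNX3, SOCS1 and CDKN2A lie near the line, and IGFBP7 and VIM lie far above it.

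The relatives and functional partners of the 9 genes numbered 48, of which 42 were tested, 1 was called higher, 4 lower and 37 not called, with a median log2 fold change of -0.30. The called share of 11.9% was near the 13.9% over all tested genes. RUNX1, the paralogue of RUNX3, fell from 79.0 ± 37.3 CPM in HCT116 to 3.97 ± 3.14 CPM in DNMT1 KO, a log2 fold change of -4.31 (SE 0.59, adjusted p = 0.000107, edgeR), while RUNX2 (-0.19) and the common partner CBFB (-0.52) were not called. RUNX1 was also lower in HCT116 batch 4 than in batches 1 and 2, by -1.26 (adjusted p = 0.0307, edgeR). RUNX3 itself had means of 68.5 ± 24.3 CPM in HCT116 and 64.6 ± 3.37 CPM in DNMT1 KO.

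Of the T-type channel genes, CACNA1I was called higher like CACNA1G, at 2.25 (SE 0.50, adjusted p = 0.00512, edgeR), from 0.198 to 0.969 CPM with overlapping groups, and CACNA1H was not called (0.55, adjusted p = 0.426). Of the SOCS family, SOCS3 and SOCS6 were called lower, both at -1.19 (adjusted p = 0.00814 and 0.00187, edgeR), and both lost the call with library totals alone, at -0.98. SOCS3 lost it in batch 2 alone as well. The retinoic acid receptor gene RARG fell by 1.46 on the log2 scale (adjusted p = 0.00117, edgeR), whereas CRABP2, the paralogue of CRABP1, stood at 207 CPM in HCT116 and 203 CPM in DNMT1 KO.

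None of the following genes, relatives or partners of the members, was called in the comparison of all libraries. ALKBH2, ALKBH3 and MPG, which also repair alkylated DNA, had log2 fold changes of 0.28, -0.35 and -0.25 beside the -8.92 of MGMT. TIMP1 and TIMP2 had -1.01 (SE 0.41, adjusted p = 0.12) and -0.78 (SE 0.27, adjusted p = 0.0678, edgeR) beside the -9.14 of TIMP3. TIMP1 was called lower, however, with batch as a term (-1.51, adjusted p = 0.00218), with that term on the libraries of batches 1 and 2 (-1.51), in batch 2 alone (-1.65), with the replicate block (-1.47) and without HCT116 replicate 9 (-1.18, adjusted p = 0.044, edgeR). SHPRH, ZRANB3, RAD18, UBE2N and PCNA, which act with or like HLTF at damaged forks, ran from -0.63 to -0.02. Of the partners of CDKN2A, CDK4, CDK6, CCND1, RB1 and MDM2 ran from -0.65 to -0.11.

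By the Pearson correlation of log2(CPM + 0.5) after the group means were taken off, over the 10 libraries and 17139 tested genes with a symbol, the genes most like CACNA1G were DIO3 (r = 0.95) and POTEE (r = 0.94). Those most like MGMT were RBBP4 (0.97) and PIGU (0.96), and those most like HLTF were SLC41A2 (0.96) and IKZF2 (0.95). TIMP3 was most like ZNF768 and TRIM8, both at 0.99, and 409 genes exceeded 0.9 with it. MGMT and TIMP3 lay at 0.051 CPM or less in DNMT1 KO, so their correlations rest almost entirely on the 6 HCT116 libraries. Among those, TIMP3 ran from 7.80 to 13.5 CPM in batches 1 and 2 and from 2.92 to 4.93 CPM in batch 4. The libraries share batch and depth in these correlations, which are given as a description.

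The labelled cell type was checked at its markers. Of 5 epithelial markers, EPCAM, KRT8, KRT18 and CDH1 were called lower in DNMT1 KO and VIL1 higher, and their summed level was 1985 to 4444 CPM in HCT116 and 421 to 682 CPM in DNMT1 KO. Of 11 markers of fibroblasts, immune cells and endothelium, 5 were tested and all 5 were called higher, COL3A1, LUM, PECAM1 and VWF among them. The share called higher was 7.42% over all tested genes. The summed level of the 11 was 0.446 to 0.990 CPM in HCT116 and 7.22 to 19.8 CPM in DNMT1 KO. At such HCT116 levels a marker passed the filter on low counts mainly if it was higher in DNMT1 KO. The 5 calls therefore add no support to the levels themselves. The 6 untested markers had group means of at most 0.116 CPM in HCT116 and 0.391 CPM in DNMT1 KO. COL1A2, DCN and CD3E had 0 counts in HCT116, and PTPRC had 2 counts in each group. These levels moved with the group in the same libraries as CACNA1G, MGMT, TIMP3 and HLTF, and their part in those results was not tested. In such bulk RNA, fewer cells with a transcript and less transcript per cell cannot be told apart.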

How the data were processed

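The authors prepared poly(A)-selected stranded libraries from independent cultures and sequenced them as read pairs. Per the study's methods, reads were checked with FastQC 0.11.4, trimmed with TrimGalore 0.4.1 and aligned on hg38 by bowtie2, an aligner that leaves junction-spanning reads unsplit, and low-quality alignments were removed. Reads over exons were then counted by featureCounts, with no strand setting stated in the sources used here. The tables were deposited as raw counts, 1 table per library. A further 3 tables of HCT116 replicates without a sample entry were not used here. Among genes with 1 to 10 counts, even counts made up 64.4 to 70.0% in 9 libraries and 39.9% in DNMT1 KO replicate 4, so counts may come in pairs. Counting intervals (95%, exact) and floors (3 counts) cover counting error only and may be too narrow.

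Annotation was GENCODE release 44. In R 4.3.3, edgeR 4.0.16 was run with TMM factors, default filterByExpr and glmQLFTest, two-sided, with the group alone as a term and Benjamini-Hochberg adjustment. SEs are the size of the change over the square root of F. Genes not tested were compared by exact permutation with a pseudocount of 0.5 CPM. The procedure was tested on simulated counts. RefSeq promoters are on GRCh38.p14. Named genes are the 9 genes, IGF2, up to 5 called genes per list and direction, called or flanking neighbours, and the 2 most similar genes of each called member; others are marked, and a few genes that this rule names are not reported here. Alternatives were other size factors, filters, DESeq2 1.42.0, batch terms or subsets, a replicate block, halved counts and leaving out each library. The members and lists were chosen with earlier results of these data known.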

Additional observations from a re-analysis of the deposited data

Results flagged for a closer look

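Values were examined for a single library standing apart within its group in 15 sets of libraries, and 2 were marked. The chance rate of about 0.75 sets does not apply to these 2, as any count is marked where all other libraries are at 0. CRABP1 stood at 0.062 CPM in HCT116 replicate 8, from 4 counts, where the other 5 HCT116 libraries had none. TIMP3 stood at 0.032 CPM in DNMT1 KO replicate 3, from 2 counts, where the other 3 DNMT1 KO libraries had none. The CRABP1 level is near, and the TIMP3 level below, the level of 3 counts in the same library (0.0465 and 0.0476 CPM).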

How the results depend on the processing

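MGMT and TIMP3 entered the test through their HCT116 counts alone, so their calls in the 19 alternatives that gave a value add no support to the counts themselves. CACNA1G held its call in 19 of 20 and HLTF in 9 of 20, while RUNX3, SOCS1 and CDKN2A were uncalled in all 20. With at least 10 counts required in every library, 734 genes were called higher and 766 lower, and MGMT and TIMP3 were not tested and HLTF fell short of the fold at -0.99, so 0 of the 9 were called lower. In batch 2 alone, 815 genes were called higher and 798 lower, and 0 of the 9 were called higher. With library totals alone RUNX3 and SOCS1 changed sign, at 0.12 and 0.075, and 66.3% of calls were higher in place of 53.4%. Leaving out each library gave RUNX3 values of -0.20 to 0.10 and SOCS1 values of -0.29 to 0.22, the sign turning without HCT116 replicate 3 for RUNX3 and without HCT116 replicate 1 or DNMT1 KO replicate 4 (0.0024) for SOCS1.

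Between the HCT116 batches, 1280 genes were called higher without a filter. Leaving out 1 library there gave 46 (without replicate 2) to 1800 (without replicate 1) genes called higher, 187 (without replicate 9) to 1770 (without replicate 1) called lower, and 0 to 1 of the 9 genes called lower. In those fits MGMT ran from -0.17 to 0.84 and HLTF from -0.36 to 0.15, with signs turned without replicate 2 (-0.11 and 0.15), and for MGMT also without replicates 3 (-0.17) and 8 (-0.047). The cause of these shifts was not tested.

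Replicate numbers 1 to 3 are shared by both groups, but the deviations of same-numbered libraries correlated at 0.55, -0.27 and 0.37, so the numbers were not taken to pair the samples. With a replicate block over replicates 1 to 3, 1232 genes were called higher and 1235 lower, against 1171 and 1147 without the block (a fit added after the data were seen). CACNA1G was 1.93 with the replicate block, MGMT -9.09 and TIMP3 -9.56, all called, and HLTF was -0.97 and not called (adjusted p = 0.188, edgeR), as it was without the block (adjusted p = 0.138, edgeR). Every library had 26700853 counts or more, and NEUROG1 and CRABP1 remained undetectable in DNMT1 KO at that depth.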
